A study of Mus musculus with 80 samples.

Results

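Growth plates of MMP9-/- mice were compared with those of WT mice. The 14 libraries, 7 per genotype, were taken by their genotype and tissue labels out of the 80 libraries of the series, and every gene that passed the count minimum was examined. All mice were C57BL/6J females at postnatal day 21 (P21), none was treated, and each library came from the growth plate of a single mouse by a bulk form of MARS-seq, which counts tags near the 3' ends of transcripts. MMP9-/- mice carry the loss of Mmp9 in every cell, and MMP9-/- and WT mice are both recorded as purchased, so that breeding history and genotype cannot be told apart. The MMP2-/- and MMPdKO (MMP2-/- MMP9-/-) growth plates and the calvaria and cortical bone of MMP9-/- and WT mice were used for comparison only.

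The growth plate is the cartilage at the end of a long bone where chondrocytes divide, enlarge into hypertrophic cells and are then replaced by bone. MMP9, a gelatinase that cleaves denatured collagens and basement membrane collagen, is made in this tissue mainly by osteoclasts and related cells at the border where vessels and marrow enter the hypertrophic cartilage. Collagen X is the matrix collagen that marks hypertrophic chondrocytes, and the parathyroid hormone receptor Pth1r is part of the loop that sets how fast chondrocytes reach that stage.

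The libraries held 538176 to 1899252 counts in MMP9-/- mice (median 988068) and 374482 to 962317 in WT mice (median 720462). Col2a1, the main cartilage collagen, lay between 3908 and 34173 CPM (counts scaled to a common library size) in MMP9-/- libraries and between 2222 and 23135 in WT libraries, so this defining marker of the labelled tissue was present in every library, at uneven levels. The 7 cartilage collagen genes took only 1.01% of the counts in MMP9-/- replicate 7 and 0.65 to 0.91% in WT replicates 2, 3 and 7, against 2.64 to 4.90% in the remaining MMP9-/- libraries and 2.66 to 3.19% in the remaining WT libraries. These 4 libraries are also those with fewer than 600000 counts. Blood cell genes were present throughout, and their shares are given beside the results they move with. A smaller value in a bulk library can reflect fewer cells of a type or less RNA per cell, and these cannot be told apart.

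Mmp9 (chr2:164940780-164955850, GRCm38, plus strand) was lower in the knockout, as its label requires, although its 3' tags did not disappear. It lay at 193, 233, 326, 307, 280, 980 and 484 CPM in MMP9-/- replicates 1 to 7 and at 1563, 3376, 1881, 2282, 2175, 2450 and 3815 CPM in WT replicates 1 to 7. No MMP9-/- library reached the lowest WT library. The log2 fold change was -2.64 ± 0.32 (SE, n = 7 per genotype, adjusted p = 0.000824 by edgeR's quasi-likelihood test). Replicate 6 of MMP9-/- stood above the other 6, and 2 other tissues of the same mouse did not: as CPM of all counts Mmp9 reached 1000 in its growth plate, 134 in its calvaria and 190 in its cortical bone. Which part of the gene is deleted is not given in the sources used here, so remaining 3' tags do not test for functional product. Mmp2, the other gelatinase, lay at 334 to 595 CPM (median 468) in MMP9-/- and at 282 to 562 CPM (median 400) in WT growth plates. The groups overlapped almost completely, with a log2 fold change of 0.17 ± 0.17 (adjusted p = 0.64).

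**Figure D1:**
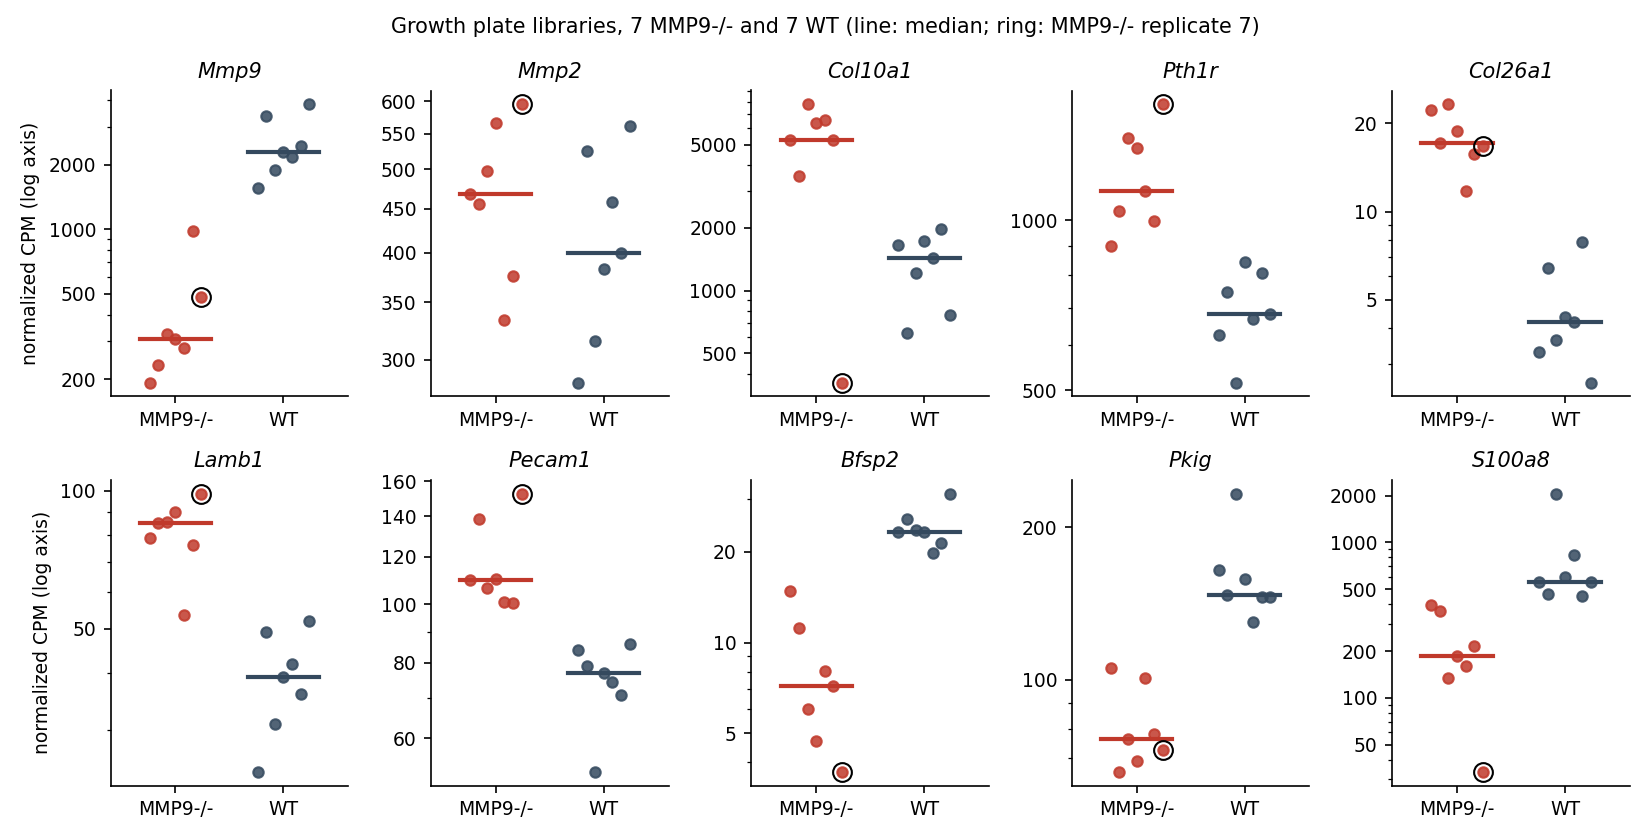
Normalized CPM on a log axis of 10 genes in the 7 MMP9-/- and 7 WT growth plate libraries, with each group's median as a line and MMP9-/- replicate 7 ringed. Mmp9 separates the groups at 980 against 1563 CPM, Mmp2 overlaps, and Col10a1 is high in 6 MMP9-/- libraries but at 363 CPM in replicate 7.

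Of 10160 genes tested with edgeR, 47 passed an adjusted p of 0.05 (0.463% of all), 27 of them higher (0.266%) and 20 lower (0.197%) in MMP9-/-, and 45 (0.443%) also changed at least 1.5-fold and are called DEGs. Before adjustment 1836 genes (18.1%) had p under 0.05. Values of 26 of the 47 genes did not overlap between the MMP9-/- and WT libraries, against 63 of all 10160 (0.62%). Passing refers to this edgeR test unless another tool is named. Only Mmp9, Hba-a2, Pkig, Col26a1, Lamb1 and Bfsp2 passed in each of the 14 fits that left out 1 library. Genotype took 16.0% of the variance of the 1000 most variable genes (exact permutation test over all assignments of the libraries, p = 0.00524), and with 1 library left out p lay between 0.000583, the smallest these assignments can give, and 0.046, the value without WT replicate 3.

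The number of genes that passed depended on single libraries. It was 56 without MMP9-/- replicate 1 and 53 without replicate 7, but it fell to between 6 and 22 when any of MMP9-/- replicates 2, 3, 4 and 6 or WT replicates 1, 3, 4, 5, 6 and 7 was left out, and it rose to 424 without MMP9-/- replicate 5 and to 195 without WT replicate 2. The direction of all 47 genes stayed the same in each of these fits. Without the 4 libraries under 600000 counts 49 genes passed, 19 of them among the 47. With DESeq2 369 genes passed its adjusted p, and 301 of them were DEGs, 80 higher and 221 lower. Below, list members called by DESeq2 are counted by its adjusted p alone, so these 369 genes are their background. List members with p under 0.05 before adjustment have 18.1% of all genes tested as their background.

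**Figure D2:**
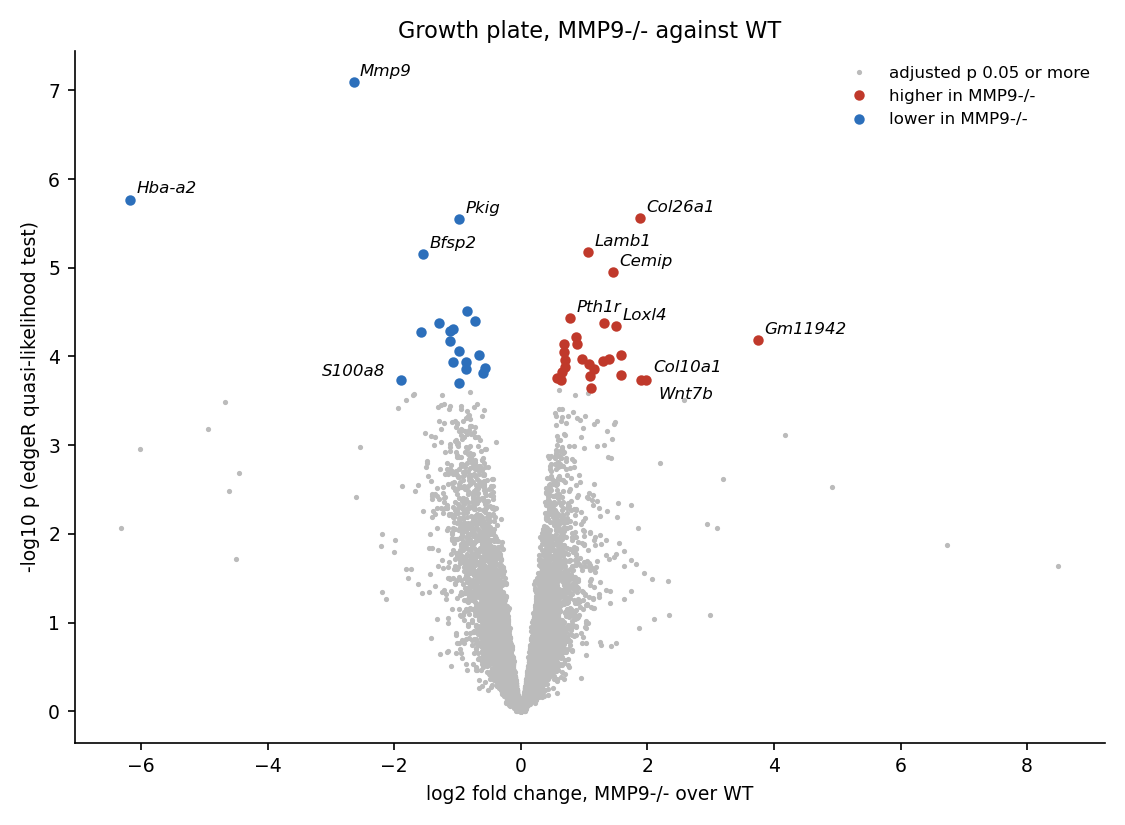
Log2 fold change (MMP9-/- over WT, x axis) against -log10 of the p-value of edgeR's quasi-likelihood test (y axis) for 10160 genes, with the 27 genes that passed upward in red and the 20 that passed downward in blue. Mmp9 has the smallest p, Hba-a2 the lowest fold change and Gm11942 the highest among genes that passed.

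Col10a1 (chr10:34389981-34397085), which encodes collagen X, rose the most in absolute level among the genes that passed. It reached 5263, 3525, 7797, 6365, 6583, 5259 and 363 CPM in MMP9-/- replicates 1 to 7, against 1648, 628, 1219, 1724, 1435, 1983 and 760 CPM in WT replicates 1 to 7. All MMP9-/- libraries except replicate 7 lay above every WT library. The log2 fold change was 1.90 ± 0.41 (adjusted p = 0.042), and it was 2.11 ± 0.24 (adjusted p = 0.00038) without MMP9-/- replicate 7 and 1.78 ± 0.19 (adjusted p = 0.000149) without the 4 libraries under 600000 counts. In 11 of the 14 fits that left out 1 library it did not pass, with adjusted p up to 0.127. Set against Col2a1 within each library, Col10a1 had a ratio of 0.0928 to 0.347 (median 0.228) in MMP9-/- and 0.0745 to 0.342 (median 0.103) in WT growth plates, which overlap. Among the 10 deeper libraries the ratio was 0.126 to 0.347 in MMP9-/- and 0.0745 to 0.103 in WT, with no overlap. That split was chosen after the data were seen and removed the libraries that made the groups overlap. WT replicates 2, 3 and 7 had the highest WT ratios (0.186, 0.237 and 0.342), and MMP9-/- replicate 7 had the lowest of its group.

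Pth1r (chr9:110722085-110747145) lay at 902 to 1605 CPM (median 1128) in MMP9-/- and at 516 to 842 CPM (median 682) in WT growth plates. The groups did not overlap, and replicate 7 of MMP9-/-, lowest for Col10a1, was the highest here. The log2 fold change was 0.78 ± 0.15 (adjusted p = 0.034), and it was 0.63 ± 0.14 (adjusted p = 0.0624) without the 4 libraries under 600000 counts. Both genes belong to the list of 16 hypertrophic chondrocyte genes, all measured, of which these 2 rose and none fell. All 16 had a positive log2 fold change (median 0.52, against 0.01 over all genes tested), and 14 had p under 0.05 before adjustment. Alpl, the phosphatase that frees phosphate for mineral, stood at 0.61 ± 0.17 (adjusted p = 0.076), Ihh, the hedgehog signal of prehypertrophic cells, at 1.13 ± 0.35 (adjusted p = 0.099) and Ibsp, a mineral-binding sialoprotein, at 0.46 ± 0.20 (adjusted p = 0.22). Together the list took 0.916 to 1.66% of the counts in MMP9-/- libraries and 0.556 to 0.822% in WT libraries, without overlap. Some other lists did not overlap either, among them angiogenic ligands and inhibitors (0.352 to 0.461% in MMP9-/-, 0.210 to 0.312% in WT). T and NK cell genes also separated, by a narrow margin (0.01022 to 0.0184% in MMP9-/-, 0.00777 to 0.01018% in WT). However, 4 of the 6 tested were negative, and the list's mean log2 CPM overlapped (3.32 to 4.00 in MMP9-/-, 3.49 to 3.78 in WT). The shares of cartilage collagens overlapped. These shares are of all counts, blood cell genes included.

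The sequence before the start of both hypertrophic genes that rose is shown so that their upstream regions can be set side by side. The 250 bases before each start come from RefSeq (GRCm38.p6), chr10:34389731-34389980 on the plus strand for Col10a1 and chr9:110747146-110747395 on the minus strand for Pth1r, printed 5' to 3'. Capitals mark matches on either strand to any of 4 motifs searched: TGTGGT (RUNX), TGANTCA (AP-1), ACGTG (hypoxia response) and ACAAAG (SOX).
Col10a1: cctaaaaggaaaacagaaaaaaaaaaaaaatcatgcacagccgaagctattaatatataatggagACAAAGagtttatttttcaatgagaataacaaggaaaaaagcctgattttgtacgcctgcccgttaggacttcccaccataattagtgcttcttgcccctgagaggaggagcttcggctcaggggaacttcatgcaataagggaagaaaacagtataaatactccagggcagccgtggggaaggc
Pth1r: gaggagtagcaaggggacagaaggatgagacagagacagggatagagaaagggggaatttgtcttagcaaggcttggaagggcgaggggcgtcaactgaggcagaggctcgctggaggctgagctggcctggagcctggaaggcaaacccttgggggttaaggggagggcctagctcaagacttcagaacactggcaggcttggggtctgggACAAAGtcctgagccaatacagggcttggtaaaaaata
Each held a single match, ACAAAG, 185 to 180 bases before the start in Col10a1 and 38 to 33 bases before it in Pth1r. The same letters stood in 11% of the 7690 upstream sequences of tested genes, in 5 of 14 matched hypertrophic genes and in 4 of 18 matched genes that rose. TGTGGT stood in 10.3% of all, in 3 of the 14 and in 2 of the 18, TGANTCA in 3.99% of all, in 1 of the 14 and in 2 of the 18, and ACGTG in 22.4% of all, in 2 of the 14 and in 1 of the 18. A match describes these letters and not a bound site.

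Other cartilage genes had positive fold changes with wider error. None of 7 cartilage collagens and none of 16 cartilage matrix proteins passed, with median log2 fold changes of 0.73 and 0.68. Before adjustment 2 of each list had p under 0.05, against 18.1% of all genes tested. DESeq2 called 1 of each. Col2a1 stood at 0.73 ± 0.48 (adjusted p = 0.45), Col11a2, a chain of collagen XI, at 0.56 ± 0.13 (adjusted p = 0.061) and Comp, cartilage oligomeric matrix protein, at 1.07 ± 0.40 (adjusted p = 0.16). Col2a1 was lowest in the same 4 libraries that had a low cartilage collagen share. Fibrillar collagens of bone differed little: the 6 genes of collagens I, III and V had a median log2 fold change of 0.06, and none passed with edgeR or DESeq2 or had p under 0.05 before adjustment in edgeR.

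Col26a1, a chain of collagen XXVI, lay at 11.8 to 23.2 CPM (median 17.2) in MMP9-/- and at 2.602 to 7.86 CPM (median 4.19) in WT growth plates. The groups did not overlap (log2 fold change 1.88 ± 0.29, adjusted p = 0.00716). Loxl4, a lysyl oxidase that cross-links collagen, lay at 31.6 to 252 CPM (median 160) in MMP9-/- against 36.5 to 71.1 CPM (median 54.6) in WT. Its lowest value was again MMP9-/- replicate 7, the only library of that group inside the WT range (log2 fold change 1.505 ± 0.29, adjusted p = 0.034). Loxl4 was the only one of 23 genes of collagen folding and secretion to pass, while all 23 were positive (median 0.33), 12 with p under 0.05 before adjustment.

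Cemip, which takes part in the breakdown of hyaluronan, lay at 51.6 to 128 CPM in MMP9-/- and at 21.9 to 62.0 CPM in WT growth plates, with a small overlap (log2 fold change 1.45 ± 0.25, adjusted p = 0.0161). Fn1, fibronectin, lay at 813 to 1533 CPM in MMP9-/- and 634 to 897 CPM in WT growth plates (0.69 ± 0.14, adjusted p = 0.0382), and Col6a2, a chain of collagen VI, at 363 to 551 CPM in MMP9-/- and 213 to 395 CPM in WT (0.66 ± 0.14, adjusted p = 0.0406). Both overlapped between groups at their edges. Fam20c, the kinase that phosphorylates secreted matrix proteins, was higher without overlap at 214 to 319 CPM in MMP9-/- and 118 to 213 CPM in WT (0.70 ± 0.15, adjusted p = 0.0382).

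Htra1, a secreted serine protease of matrix, lay at 221 to 357 CPM in MMP9-/- and at 120 to 194 CPM in WT growth plates, without overlap (0.69 ± 0.14, adjusted p = 0.0348). It was the only one of 11 measured genes of the insulin-like growth factor axis to pass. Ccn2, a matricellular growth factor of hypertrophic cartilage, reached 143 to 480 CPM (median 379) in MMP9-/- and 96.3 to 236 CPM (median 173) in WT. Only MMP9-/- replicate 7 fell within the WT range (1.08 ± 0.23, adjusted p = 0.0387). It was the only one of 15 matricellular genes to pass, and 5 of that list had negative fold changes.

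Lamb1, the laminin beta 1 chain (chr12:31265234-31329644), lay at 53.6 to 98.6 CPM (median 85.1) in MMP9-/- and at 24.4 to 52.0 CPM (median 39.2) in WT growth plates. The groups did not overlap, with MMP9-/- replicate 5 closest to WT (1.06 ± 0.17, adjusted p = 0.0119). Lama4, the alpha 4 chain of vessel laminins, stood at 1.09 ± 0.23 (adjusted p = 0.042) and Col18a1, the source of endostatin, at 0.96 ± 0.20 (adjusted p = 0.0382). These 3 were the members of the basement membrane list of 14 measured genes that passed. All 14 were positive (median 0.48), 8 with p under 0.05 before adjustment, Col4a1 among them at 0.68 ± 0.17 (adjusted p = 0.065).

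Pecam1, an adhesion molecule of endothelium, lay at 100 to 152 CPM (median 110) in MMP9-/- and at 52.8 to 85.9 CPM (median 76.9) in WT libraries. It did not overlap and was highest in MMP9-/- replicate 7 (0.64 ± 0.14, adjusted p = 0.042). Of 19 endothelial genes it alone passed, while all 19 were positive (median 0.58). Before adjustment 14 of them had p under 0.05, against 18.1% of all genes tested. DESeq2 called 4 of the 19, and edgeR none when all growth plate libraries were in the fit. Cldn5, a tight junction protein of endothelium, stood at 0.88 ± 0.21 (adjusted p = 0.061) and Cdh5, the cadherin of endothelial junctions, at 0.59 ± 0.15 (adjusted p = 0.067). Of 10 measured angiogenic ligands and inhibitors 2 passed, Col18a1 and Ccn2, and Vegfa stood at 0.56 ± 0.17 (adjusted p = 0.095). On neither list, Apln, a peptide ligand of endothelial tips, rose by 1.29 ± 0.27 (adjusted p = 0.0382) and Epas1, a hypoxia-inducible transcription factor of endothelium, by 0.58 ± 0.12 (adjusted p = 0.042), both with overlapping groups. Without the 4 libraries under 600000 counts none of the endothelial genes passed and 18 of 19 were positive. In that fit 3 basement membrane genes passed, Lamb1, Col18a1 and Col4a1, and Lama4 did not (adjusted p = 0.067). With the marrow score described further on as a covariate no gene of either list passed, and 15 of 19 endothelial genes (median 0.17) and 11 of 14 basement membrane genes (median 0.28) were positive. Cldn5 then stood at 0.09 ± 0.17, Col4a1 at 0.12 ± 0.16, Lama4 at 0.37 ± 0.24 and Col18a1 at 0.51 ± 0.22.

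**Figure D3:**
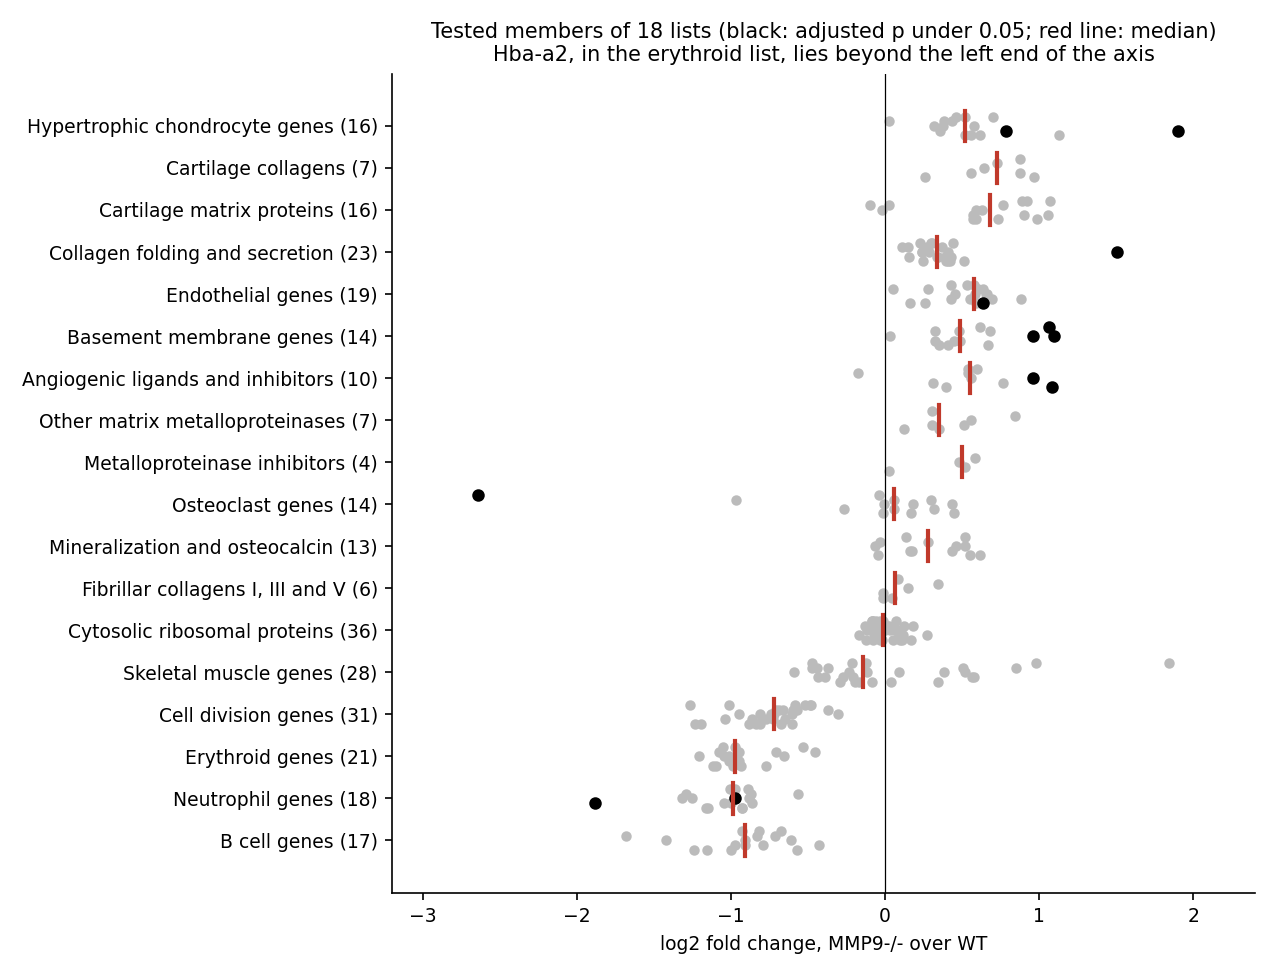
Log2 fold change (MMP9-/- over WT) of each tested member of 18 gene lists, with the number of members in brackets, genes that passed in black and the list median as a red line. Hypertrophic, endothelial and collagen-folding genes lie to the right of 0 without exception, and cell division, erythroid, neutrophil and B cell genes to the left.

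None of 7 further matrix metalloproteinases and none of 4 inhibitors passed, while 2 and 3 of them had p under 0.05 before adjustment and DESeq2 called 1 and 2. All 7 metalloproteinases were positive (median 0.35), with Mmp15, a membrane type, at 0.84 ± 0.22 (adjusted p = 0.07), Mmp14, the membrane type that activates pro-MMP2, at 0.56 ± 0.18 (adjusted p = 0.11) and Mmp13, a collagenase of hypertrophic cartilage, at 0.51 ± 0.36 (adjusted p = 0.49). Mmp13 had low counts, 35 ± 22 CPM in MMP9-/- and 26 ± 10 CPM in WT growth plates (SD, n = 7 each). The inhibitors Timp2 and Timp3 stood at 0.48 ± 0.13 (adjusted p = 0.074) and 0.59 ± 0.18 (adjusted p = 0.095). Osteoclast genes apart from Mmp9 did not move together. Of 14 measured, Mmp9 included, 8 were positive and 6 negative (median 0.06), with Acp5, the acid phosphatase of osteoclasts, at 8560 ± 1989 CPM in MMP9-/- and 6272 ± 2142 CPM in WT (0.45 ± 0.19, adjusted p = 0.22). Without the 4 libraries under 600000 counts Acp5 passed (0.67 ± 0.12, adjusted p = 0.0259).

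Among signalling genes, Wnt7b, a WNT ligand, lay at 9.11 to 36.2 CPM in MMP9-/- and at 0 to 8.38 CPM in WT growth plates. The groups did not overlap, and the value of 0 came from WT replicate 7, the library with the fewest counts (1.98 ± 0.43, adjusted p = 0.042). It was not on the WNT list, where none of 23 genes passed, DESeq2 called 2 and 9 had p under 0.05 upward before adjustment, among them Wnt4 at 0.81 ± 0.22 (adjusted p = 0.074). Further genes that rose were Wnk4, a kinase that controls ion transport, at 1.32 ± 0.25, Rbp4, the retinol carrier, at 1.40 ± 0.29, Fxyd3, a regulator of the sodium pump, at 1.59 ± 0.34, Stx1a, a membrane fusion protein, at 1.10 ± 0.24 and Myo6, a motor protein, at 1.15 ± 0.24 on the log2 scale. Sema4c, a semaphorin, rose by 0.90 ± 0.18 and Rab11fip5, a Rab11-binding protein, by 0.87 ± 0.17. Gm15867 is annotated as an antisense gene, and whether counting used strand is not given in the sources used here, so its 1.59 ± 0.32 cannot be assigned to a strand.

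The genes that fell included 2 neutrophil genes. S100a8, a subunit of calprotectin, lay at 33.5 to 398 CPM (median 186) in MMP9-/- and at 455 to 2058 CPM (median 560) in WT growth plates. No MMP9-/- library reached the lowest WT library (-1.89 ± 0.41, adjusted p = 0.042), and WT replicate 3 and MMP9-/- replicate 7 formed the ends of the range. Mpo, myeloperoxidase, lay at 138 to 367 CPM in MMP9-/- and at 355 to 716 CPM in WT, with a small overlap (-0.98 ± 0.21, adjusted p = 0.0445). All 18 measured neutrophil genes were negative (median -0.99), 16 with p under 0.05 before adjustment, and DESeq2 called 7. Their summed share was 0.0873 to 0.491% of counts in MMP9-/- and 0.355 to 0.931% in WT libraries.

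Bfsp2, known as a lens filament protein, lay at 3.72 to 14.9 CPM (median 7.17) in MMP9-/- and at 19.9 to 31.2 CPM (median 23.2) in WT growth plates. The groups did not overlap (-1.55 ± 0.25, adjusted p = 0.0119). Bach2, a transcription factor of B cells, fell by 1.57 ± 0.30 on the log2 scale, Fhdc1, a formin, by 1.30 ± 0.25 and Myb, a transcription factor of blood progenitors, by 1.13 ± 0.22, each without overlap. Nup210, a nuclear pore protein, fell by 1.07 ± 0.21, Mgst1, a glutathione transferase of membranes, by 1.12 ± 0.22, Cdca2, which binds chromatin in mitosis, by 1.07 ± 0.22 and Asf1b, a histone chaperone, by 0.98 ± 0.20. Agfg2, Fam53b, Usp7, a deubiquitinase, Pes1, a factor of ribosome assembly, Gtpbp2 and Rnaseh2c, a subunit of ribonuclease H2, fell by between 0.57 (Rnaseh2c) and 0.87 (Fam53b).

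All 31 measured cell division genes were negative (median -0.72), 30 with p under 0.05 before adjustment, and none passed with edgeR while DESeq2 called 12. Among them were Ccna2, which encodes cyclin A2, at -1.27 ± 0.29 (adjusted p = 0.058) and Mki67, the usual mark of dividing cells, at -1.19 ± 0.34 (adjusted p = 0.081). Without the 4 libraries under 600000 counts 3 cell division genes passed, Ccna2 among them (-1.26 ± 0.20, adjusted p = 0.00718). All 21 erythroid genes were negative (median -0.97), with Hba-a2 the only one to pass with edgeR and 11 called by DESeq2. Hbb-bs, a beta globin, lay at 24891 ± 12705 CPM in MMP9-/- and 49306 ± 18871 CPM in WT libraries (-0.99 ± 0.32, adjusted p = 0.11). All 17 B cell genes were negative (median -0.91), 12 with p under 0.05 before adjustment, and none passed with edgeR while DESeq2 called 9. Rag1, which cuts immunoglobulin genes, stood at -1.68 ± 0.38 (adjusted p = 0.052). Erythroid genes took 1.19 to 7.49% of the counts in MMP9-/- and 5.85 to 14.02% in WT libraries, and B cell genes 0.029 to 0.131% in MMP9-/- and 0.123 to 0.235% in WT libraries. Skeletal muscle genes took 0.837 to 3.26% in MMP9-/- and 0.245 to 4.52% in WT libraries, and none of 28 passed with edgeR or DESeq2, with 1 at p under 0.05 before adjustment in edgeR. All 3 measured mast cell and basophil genes were also negative (median -0.50), and none had p under 0.05 before adjustment in edgeR. The remaining blood and marrow lists had members of both signs: 6 of 15 macrophage and antigen presentation genes were positive (median -0.06), 2 of 8 megakaryocyte and platelet genes (median -0.55), 2 of 6 T and NK cell genes (median -0.19) and 2 of 13 marrow stromal and adipocyte genes (median -0.31). None of these 4 lists had a member that passed with edgeR. Before adjustment 2, 2, 1 and 2 of their members had p under 0.05, all lower in MMP9-/- except the T and NK cell gene, which was higher. DESeq2 called 1, a T and NK cell gene that was also higher.

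These blood cell values moved with genotype, so the fit was repeated with each library's marrow score, the mean log2 CPM of the erythroid, neutrophil and B cell lists without Hba-a2, as a covariate. The scores were 4.69 to 6.80 in MMP9-/- and 6.59 to 7.69 in WT libraries, and overlapped little. In that fit 3 genes passed, Gm8607, whose fitted value diverged and is not given, Mmp9 (-3.18 ± 0.43, adjusted p = 0.00306) and Ccn2 (1.64 ± 0.26, adjusted p = 0.0148). Col10a1 stood at 2.81 ± 0.61 (adjusted p = 0.253), Lamb1 at 0.77 ± 0.22 (adjusted p = 0.549) and Pth1r at 0.34 ± 0.15 (adjusted p = 0.819). S100a8, whose list is part of the score, stood at -0.34 ± 0.31 (adjusted p = 0.885). The directions of all 47 genes stayed the same, and 15 of 31 cell division genes turned positive. With the genes of the 3 lists and the haemoglobins removed before normalization, 43 genes passed. The part of the marrow cells in the result beyond these values was not tested.

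Genes on chromosome 2 near Mmp9 were examined because they are inherited with its altered allele. Pkig, an inhibitor of protein kinase A, lies 1.28 Mb before Mmp9 and was lower at 65.8 to 105 CPM (median 76.4) in MMP9-/- than at 130 to 233 CPM (median 147) in WT growth plates. The groups did not overlap (-0.98 ± 0.15, adjusted p = 0.00716). Ywhab, a 14-3-3 protein, lies 0.946 Mb before it and had 29.8 to 111 CPM in MMP9-/- and 146 to 163 CPM in WT, also without overlap (-0.87 ± 0.18, adjusted p = 0.039). Within 5 Mb of Mmp9, 21 of 72 tested genes (29.2%) had p under 0.05 before adjustment, against 11 of 75 genes (14.7%) at 5 to 10 Mb and 106 of 585 genes (18.1%) beyond 20 Mb. Pkig was also negative in calvaria (-0.41), cortical bone (-0.70) and between MMPdKO and MMP2-/- growth plates (-0.49), none of which passed. Whether linked sequence or the loss of MMP9 underlies these values cannot be told apart.

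Some transcripts that passed kept to the mouse in each tissue. Gm11942, a processed pseudogene on chromosome 4, had 2557, 116, 3130, 213, 3045, 27.98 and 2859 CPM in MMP9-/- replicates 1 to 7, against 83.3 to 169 CPM in WT libraries. In MMP9-/- growth plates 4 libraries were high and the other 3 lay in or near the WT range (log2 fold change 3.75 ± 0.74, adjusted p = 0.0348). The same mice repeated this in other bones: 5 calvaria and cortical bone libraries of the 4 high mice held 2072 to 2440 CPM of all counts, and 6 libraries of the other 3 mice held 70.2 to 167 CPM. Such a spread was not particular to MMP9-/- mice. As CPM of all counts, Gm11942 ran from 38.2 to 4845 in MMP2-/- and from 111 to 6896 in MMPdKO growth plates. Reads of a processed pseudogene can come from near-identical copies, so the assignment is uncertain.

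Hba-a2, an alpha globin gene with the near-identical copy Hba-a1, lay at 1.43 to 121 CPM in MMP9-/- libraries, against 6421, 105, 12120, 9781, 5447, 4498 and 172 CPM in WT replicates 1 to 7. WT replicates 2 and 7 thus lay in or near the MMP9-/- range (-6.17 ± 0.91, adjusted p = 0.00716). Low and high mice were again the same in other bones, with 216 to 344 CPM of all counts in 4 libraries of the 2 low WT mice, 2891 to 18898 CPM in 8 libraries of the 5 high WT mice and 18.8 to 298 CPM in 11 libraries of the MMP9-/- mice. In other growth plates Hba-a2 ran from 6.21 to 2918 CPM of all counts in MMP2-/- and from 30.9 to 156 in MMPdKO mice. How reads were divided between the copies is not given in the sources used here, and Hba-a1 did not pass (adjusted p = 0.298).

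**Figure D4:**
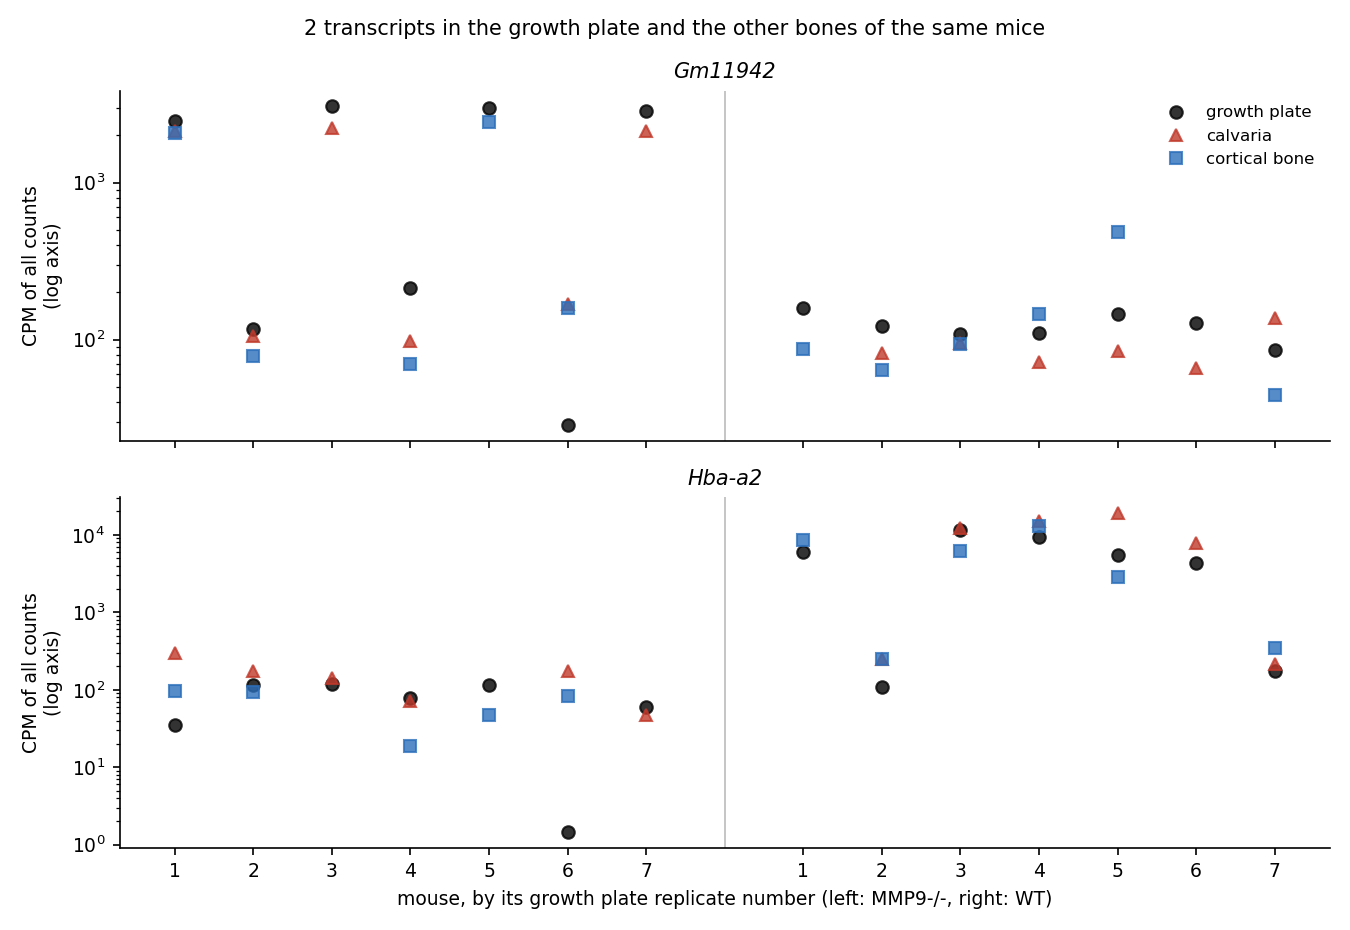
CPM of all counts on a log axis of Gm11942 and Hba-a2 in the growth plate (circles), calvaria (triangles) and cortical bone (squares) of the mice whose growth plates were compared, MMP9-/- on the left and WT on the right. High and low mice keep their level in each bone measured, for example 4 high and 3 low MMP9-/- mice for Gm11942 and 5 high and 2 low WT mice for Hba-a2.

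Growth plates without MMP2 gave a second comparison that shares no library with the first, MMPdKO (n = 7) against MMP2-/- (n = 6). There Mmp9 alone passed of 9559 genes (0.0105%), at -2.81 ± 0.22, while 987 genes (10.3%) had p under 0.05 before adjustment and DESeq2 called 21 DEGs. Without MMP2-/- replicate 5 edgeR called 40. Of the other 46 genes that passed in MMP9-/- growth plates 45 were measured. Of these, 41 had the same sign (91.1%), against 5935 of all 9258 genes tested in both (64.1%). Of 1672 genes that did not pass but had p under 0.05 before adjustment in the first comparison, 1357 shared their sign (81.2%). Before adjustment 26 of the 45 had p under 0.05 in the same direction. Col10a1 stood at 1.38 ± 0.40, Loxl4 at 1.25 ± 0.23, Pth1r at 0.71 ± 0.19, Htra1 at 0.73 ± 0.16, Lama4 at 1.06 ± 0.23, Wnt7b at 2.90 ± 0.56 and S100a8 at -1.66 ± 0.51. Ccn2 did not share its direction (-0.14 ± 0.33), nor did Rab11fip5 (-0.16 ± 0.21), Pes1 (0.02 ± 0.18) or Rnaseh2c (0.12 ± 0.19). Between MMP9-/- and MMP2-/- growth plates, which shares the MMP9-/- libraries with the first comparison, 3 of 10368 genes passed (0.0289%). They were Mmp2 (4.54 ± 0.32), Mmp9 (-2.71 ± 0.32) and Cap1, an actin-binding protein (-1.74 ± 0.27, adjusted p = 0.0139). Apart from Mmp9, no gene that passed against WT passed here. Before adjustment in edgeR 518 of the 10368 genes had p under 0.05, against 1836 of 10160 (18.1%) between MMP9-/- and WT.

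The effect was also set against that in the 2 other bones, using the same contrast of MMP9-/- and WT mice. In calvaria 8 of 10282 genes passed (0.0778%), of which Mmp9, Hba-a2 and Gm11942 had also passed in the growth plate. Of the 39 genes besides Mmp9 measured there, 16 had the same sign as in the growth plate. The same-sign share over all genes was not computed for calvaria. Between growth plate and calvaria the effect differed for 71 of 10927 genes (0.65%) by the interaction test, and for 14 of the 46 genes of the first comparison measured in that fit. Those 46 genes were chosen by the same growth plate libraries, which favours a difference from calvaria. The 14 of 46 therefore cannot be read against the 0.65%. Several higher genes had negative values in calvaria: Lamb1 stood at -0.65 ± 0.19 there, a difference of 1.69 ± 0.26 from the growth plate (adjusted p = 0.0021), Loxl4 at -0.57 ± 0.27 (difference 2.03 ± 0.44, adjusted p = 0.033) and Htra1 at -0.40 ± 0.16 (difference 1.06 ± 0.21, adjusted p = 0.028). The neutrophil genes ran the opposite way, with S100a8 at 0.94 ± 0.39 in calvaria (difference -2.84 ± 0.62, adjusted p = 0.038) and Mpo at 0.41 ± 0.14 (difference -1.40 ± 0.26, adjusted p = 0.02). Mmp9 also fell in calvaria (-2.60 ± 0.13) and cortical bone (-2.62 ± 0.28). Col10a1 was low in calvaria, at 44.2 to 214 CPM in MMP9-/- and 29.7 to 234 CPM in WT libraries, and its difference of 2.04 ± 0.65 did not pass (adjusted p = 0.10). Leaving out 1 library at a time, the count of 71 was between 3 and 29 without any of MMP9-/- growth plate replicates 3, 4 and 7, WT growth plate replicates 1 and 3, MMP9-/- calvaria replicates 1, 4, 6 and 7 and WT calvaria replicates 2 and 6, 34 to 46 without MMP9-/- calvaria replicate 3, WT calvaria replicates 5 and 7 or WT growth plate replicates 5 and 6, and 132 to 286 without MMP9-/- growth plate replicates 1 and 5, WT growth plate replicate 2 or WT calvaria replicates 1 and 3.

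Between growth plate and cortical bone no difference passed of 10487 genes (0%), with 419 at p under 0.05 before adjustment in edgeR and 0 DEGs by DESeq2. MMP9-/- cortical bone replicate 1 held only 114408 counts and replicate 7 held 363534, both below the shallowest growth plate library compared (374482). This depth limits what could pass in cortical bone. Of the 39 genes besides Mmp9 measured in cortical bone 35 had the same sign. The same-sign share over all genes was not computed for cortical bone, so this count has no background beside it. In cortical bone 2 of 9311 genes passed (0.0215%), Mmp9 and Hba-a2. Many mice gave more than 1 tissue: calvaria came from 6 of the 7 MMP9-/- and 6 of the 7 WT mice with a growth plate library, and cortical bone from 5 of 7 MMP9-/- and 6 of 7 WT mice. Both interaction tests treated libraries as separate.

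**Figure D5:**
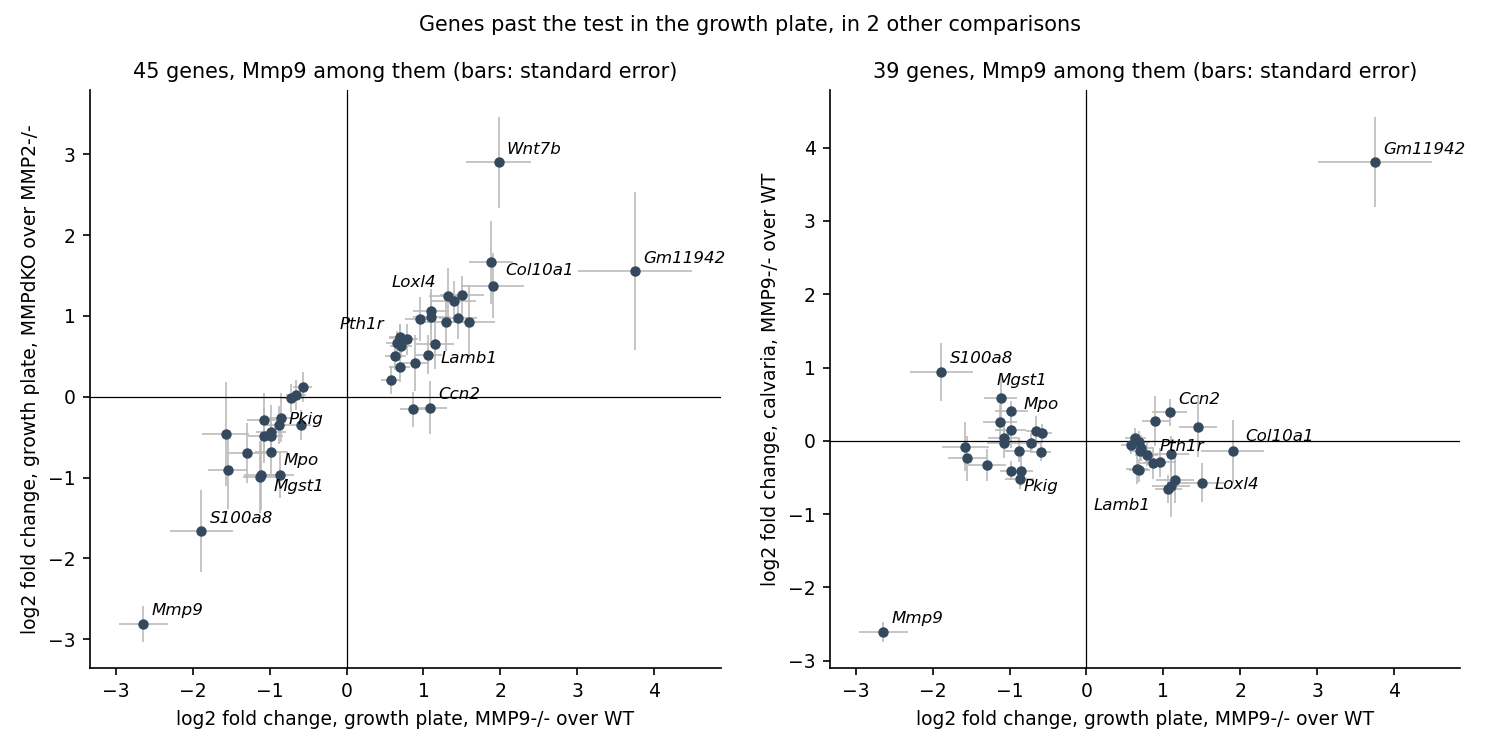
Log2 fold changes of genes that passed in the MMP9-/- and WT growth plates (x axis) against MMPdKO over MMP2-/- growth plates (left) and MMP9-/- over WT calvaria (right), with standard errors and without Hba-a2. Loxl4, Col10a1 and S100a8 share their sign on the left, while Lamb1, Loxl4 and S100a8 have opposite signs on the right.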

How the data were processed

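RNA of 14 growth plates (7 MMP9-/- and 7 WT) was compared, each library made from 30 ng of RNA. The authors deposited raw counts per gene, made from MARS-seq reads by trimming (cutadapt), alignment (STAR 2.7.3a, GRCm38) and counting over genes (htseq-count). Whether molecular barcodes were collapsed and how the 14688 genes of the table were filtered is not given in the sources used here. Their normalized values were not used. Coordinates come from GENCODE on GRCm38, and upstream sequences from RefSeq.

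After TMM normalization, edgeR's quasi-likelihood test (edgeR 4.0.16, R 4.3.3) was fitted without covariates to the raw counts of genes that reached 15 counts in some fitted library. P-values were adjusted by Benjamini-Hochberg over all genes tested. DEGs passed an adjusted p of 0.05 and changed by 1.5-fold or more. Tissue comparisons used an interaction term. CPM are TMM-normalized unless called CPM of all counts. On counts simulated for the MMP9-/- and WT growth plates (9766 genes), edgeR recovered 11.9% of 1.5-fold, 55.2% of 2-fold and 95.5% of 4-fold changes, and called 6 unchanged genes. No libraries of a group agreed within sampling noise (chi-square per degree of freedom at least 2.16).

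The text names Mmp9 and Mmp2, the DEGs with the largest and most significant changes, up to 3 leading members and the most abundant marker of each list, and genes near Mmp9. The remaining genes that passed, except 1 that is not reported here, and Gm8607, Cap1 and Mki67 were added after their values were seen. The comparison and the lists were chosen with earlier results of these data known. Alternatives were RLE size factors, DESeq2 1.42.0, other count filters, pooled fits, a replicate block, removal of haemoglobin or muscle genes and leaving out each library. Removal of shallow libraries, of 2 MMP9-/- libraries and of marrow genes, and the marrow covariate, were chosen after seeing the data.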

Additional observations from a re-analysis of the deposited data

Results flagged for a closer look

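Within groups of 7, 18 of 188 groups of libraries (94 genes, 2 genotypes) held a library whose distance from its nearest neighbour took more of the group's range than Dixon's test allows at 95%. Chance gives about 1 in 20. In MMP9-/- growth plates replicate 6 was high for Mmp9 (980 CPM, next library 484), replicate 2 for Mgst1 (29.4) and replicate 4 for Vegfa (175), and replicate 1 was low for Rab11fip5 (25.3). Replicate 7 was high for Htra1 (357), Timp2 (978), Alpl (2067), Acp5 (12771), Col4a1 (1209) and Igfbp3 (180). In WT growth plates replicate 3 was high for Pkig (233), Fam53b (326), S100a8 (2058), Rag1 (43.7) and Fcrla (115), replicate 1 for Rbp4 (108) and replicate 7 for Cdh5 (112), while replicate 5 was low for Rnaseh2c (139). Without MMP9-/- replicate 7, 53 genes passed.

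The effect of MMP9-/- differed between growth plate and calvaria, by the interaction term of edgeR, for 14 of the genes that passed in the growth plate. These genes were chosen by growth plate libraries that the interaction fit reuses, which favours such differences. The difference, growth plate minus calvaria on the log2 scale, was positive for Lamb1 (1.69), Pth1r (0.94), Loxl4 (2.03), Rab11fip5 (1.15), Htra1 (1.06), Gm15867 (2.46), Col18a1 (1.23), Apln (2.07) and Myo6 (1.66), and negative for Nup210 (-1.13), Mgst1 (-1.72), Rnaseh2c (-0.69), S100a8 (-2.84) and Mpo (-1.40).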

How the results depend on the processing

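Genes past the adjusted p, and DEGs with those higher and lower, numbered 369 and 301 (80 and 221) with DESeq2, 27 and 27 (16 and 11) with all growth plate libraries in the fit, 107 and 102 (64 lower) with all 80 libraries, 27 and 27 (8 lower) without MMP9-/- replicates 6 and 7, and 3 and 3 (2 and 1) with the marrow covariate. When 1 library at a time was left out they ranged from 6 to 424 and from 6 to 385 (2 to 92 higher, 4 to 293 lower). The share of variance ranged from 13.8 to 18.9%. RLE factors, both other filters and removal of haemoglobin, muscle, marrow genes or shallow libraries kept the count of DEGs within 1.5 times. With the marrow covariate the sign turned for Mmp2 (-0.20), Timp1 (-0.061), Acp5 (-0.028), Car2 (0.27), Hbb-bs (0.22) and Hba-a1 (0.46), none of which had passed. The cause of these changes was not tested.

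Replicate numbers do not pair the mice, and same-numbered libraries did not deviate together (mean r = -0.09, against 0.01 for other numbers). With the replicate block 6 genes passed, all DEGs (3 higher, 3 lower), and MMP9-/- against MMP2-/- gave 11 DEGs in place of 3. MMPdKO against MMP2-/- gave 21 DEGs with DESeq2, 2 with all growth plate libraries and 1 to 40 with 1 library left out, in place of 1. MMP9-/- against MMP2-/- gave 5 with DESeq2 and 2 to 5 with 1 library left out. The interaction with calvaria gave 301 with DESeq2, 38 without a count filter, 112 with filterByExpr and 3 to 286 with 1 library left out, in place of 71.

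At these depths genes near the count minimum can be called only by large differences, and most 1.5-fold changes would be missed.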
